A study of Drosophila melanogaster with 102 samples.

Results

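The 48 genes described here are the subunits of the proteasome and their duplicates in Drosophila melanogaster. They were all the genes, of 14312 in both count tables, whose FlyBase symbol begins with Prosalpha or Prosbeta, or with Rpn or Rpt followed by a digit. In 16 of them the symbol goes on with a T or ends in R, with or without a digit. These are called testis paralogs below, and the other 32 are called ubiquitous subunits. A ubiquitous subunit whose symbol a paralog extends, such as Prosalpha6 for Prosalpha6T, is called its parent, and there were 12 parents.

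The proteasome degrades proteins tagged with ubiquitin. Its 20S core is a barrel of stacked rings, with the Prosalpha proteins outside and the Prosbeta proteins inside, where Prosbeta1, Prosbeta2 and Prosbeta5 hold the caspase-like, trypsin-like and chymotrypsin-like activities. The 19S cap recognises and unfolds substrates: the Rpt proteins form its ring of ATPases, Rpn10 and Rpn13 bind ubiquitin chains, Rpn11 cuts the chain off, and Rpn1 and Rpn2 are large scaffolds. In the fly, several core and cap subunits have duplicates expressed in the male germline, and males that lack Prosalpha6T are sterile.

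RNA was sequenced from whole flies labelled W1118, a white mutant strain, with 1 library (m45) labelled W1119. Mothers ate a high sugar diet (HSD), a high fat diet (HFD) or a control diet (CD) for 7 days before mating with CD males, and all sons and daughters were then kept on CD at 25 °C. The 102 libraries were 44 of sons and 43 of daughters, in 18 groups by maternal diet, sex and day (0, 10 or 50), and 15 of mothers in 3 diet groups. A group held 5 libraries, except HSD day 50 sons (6), HFD day 50 sons (3), HSD day 50 daughters (4) and CD day 0 daughters (4). Libraries held 6332907 to 19469296 counts. Nothing in the labels places the replicates of a group in separate cultures, so a p-value here rests on library-to-library spread that could be technical alone.

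Some libraries went against their labels. Library m8, labelled an HFD day 0 son, had 1328 CPM of the oocyte gene osk and none of the seminal fluid gene Acp36DE, against at most 198 CPM of osk in any other son. Library f12, labelled an HSD day 0 daughter, had 451 CPM of Acp36DE, where the other daughters had at most 0.21 CPM. Among CD day 0 sons, m1, m3 and m4 held some osk (18.03, 198 and 47.2 CPM). Library m27, an HSD day 10 son, had a summed level of 20 testis markers of 417 CPM, against 6410 to 8701 CPM in the other day 10 sons. Library m45, an HSD day 50 son, had a summed level of 12 muscle genes of 40238 CPM, against 5604 to 8765 CPM in the other day 50 sons. Values below name these libraries where they bear on a result. CPM, the usual per-library scaling of counts to a fixed total, was TMM-adjusted over all progeny, or over all mothers. Fold changes come from fits that scale only the libraries of the sex or day compared, so they can differ from ratios of the printed CPM. A fit of all 18 progeny groups scaled together was also made, and is called the joint fit below.

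The set of paralogs was not uniform. Prosalpha1R had 122 to 412 CPM in the 102 libraries, in both sexes, while its parent Prosalpha1 had no count in 86 of them and at most 12.1 CPM in the rest. The pair lie close together on chromosome arm 2R on the same strand (Prosalpha1 at 2R:7827303-7828678 and Prosalpha1R at 2R:7830413-7831771, build BDGP6.54). The deposited counts may divide reads between such similar genes, so neither level is certain. Prosalpha1R was measured like a ubiquitous subunit here, and sums over paralogs below hold the other 15, and means over subunits the 31 without Prosalpha1. Both lists were trimmed after the values were seen and serve as descriptions.

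The paralogs are compact genes. Of the 16, 6 had a single exon and the median was 2 exons, whereas 4 of the 32 ubiquitous subunits had a single exon and their median was 3. Prosbeta2R1 (X:5808954-5810158) and Rpn13R (X:5131898-5132985) were the 2 paralogs on the X chromosome. All 4 X-linked ubiquitous subunits, Prosalpha4, Rpt3, Rpt4 and Rpt6, were parents, and their paralogs lie on autosomes. The paralogs Prosalpha4T1, Rpn12R and Rpn13R lie within other annotated genes (CG42322 on the opposite strand, Sytbeta on the same strand, and CG15465 and rg on the same strand), so reads of the host could add to their counts.

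Sons and daughters were first compared in the CD line. Taken as a sum, the 15 paralogs were higher in sons at every age. Their summed level was 432, 553, 432, 407 and 491 CPM in the 5 CD day 0 sons, against 15.8, 21.1, 24.7 and 26.8 CPM in the 4 CD day 0 daughters. At day 10 it was 537, 476, 432, 423 and 443 CPM in sons, against 6.36, 2.93, 1.88, 9.78 and 2.30 CPM in daughters. At day 50 it was 22.7, 106, 102, 83.0 and 24.7 CPM in sons, against 4.63, 2.70, 1.74, 3.04 and 1.63 CPM in daughters. The sexes did not overlap on any of these days.

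**Figure D1:**
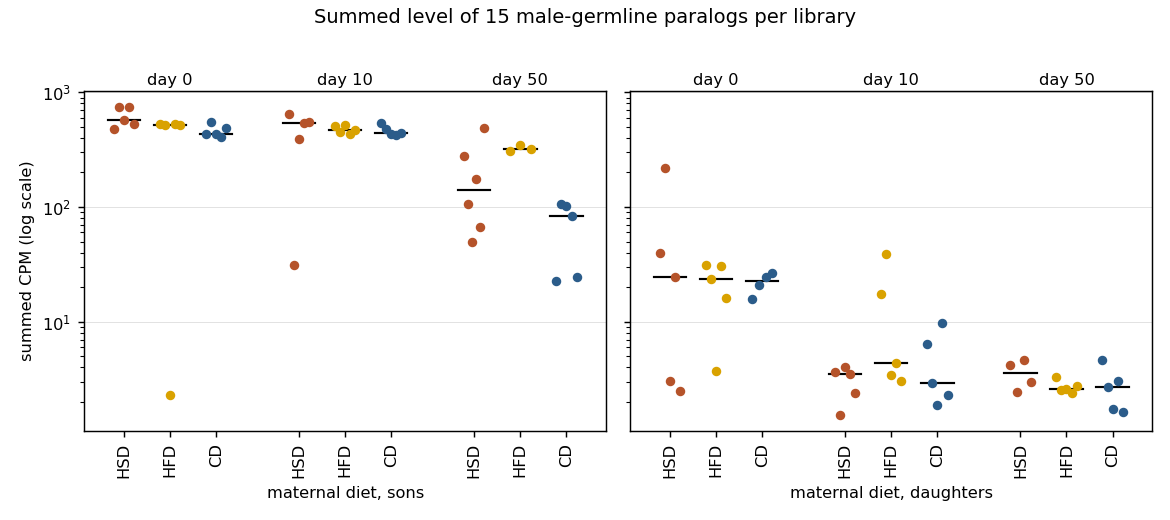
Summed CPM of the 15 testis paralogs (log axis) in each library, by sex, day and maternal diet, with a line at the group median. Sons of days 0 and 10 lie above 390 CPM except m8 (2.32) and m27 (31.4), CD day 50 sons lie between 22.7 and 106, and daughters lie below 40 except f12 (218).

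In edgeR's quasi-likelihood test, 14 of 16 paralogs were higher in CD sons at day 0, 15 at day 10 and 15 at day 50, and none was lower. Across all genes tested, the shares higher in sons were 26.5% at day 0, 44.5% at day 10 and 47% at day 50. The paralogs were picked by symbols that mark male-germline duplicates, so a higher level in sons was built into the choice. Of them, 5 at day 0, 8 at day 10 and 8 at day 50 had no count in CD daughters and passed the low-count filter through other groups. The counts of paralogs called describe the set and are no independent evidence. Prosalpha1R passed on no day, with log2 fold changes of 0.39, 0.16 and -0.44 and adjusted p of 0.15, 0.437 and 0.0518. Rpt6R did not pass at day 0 (adjusted p = 0.175). Without m1, m3, m4, m8 and f12, the count of higher paralogs at day 0 was again 14, in a fit whose share of all genes is not given here. In the HFD line 14, 15 and 15 paralogs were higher in sons on the 3 days (29.7%, 70.8% and 83.4% of all genes were called in either direction), and the HSD line gave the same counts (41.4%, 84.2% and 86.0%).

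Among core paralogs, Prosbeta5R1, a duplicate of the chymotrypsin-like subunit, had the highest mean in CD day 10 sons, at 63.2 ± 10.6 CPM (SD, n = 5), and no count in the 5 daughters. Against a floor of 3 counts over the daughters it was at least 1304-fold higher. Prosbeta4R2 had 51.2 ± 8.65 CPM in those sons and was at least 1056-fold higher on the same floor. For the 8 paralogs without a count in CD day 10 daughters, the lower bounds ran from 183-fold to 1304-fold. At day 0 there were 5 such paralogs, bounded at 178-fold to 567-fold, and at day 50 there were 8, bounded at 16.7-fold to 106-fold. With these genes at their bound, the median log2 fold change of the 15 paralogs was 8.09, 8.18 and 5.12 at days 0, 10 and 50, against all-gene medians of 0.12, 0.23 and 0.48.

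The paralogs differed in their level in females. Prosbeta4R1 and Prosbeta4R2 had no count in any of the 42 daughters other than f12. Rpt3R, a duplicate of an ATPase of the cap, was found in each of those daughters at 0.63 to 3.16 CPM and in the mothers at 0.41 to 2.48 CPM. Rpt6R, the duplicate of another cap ATPase, varied most, between 0 and 33.2 CPM in those 42 daughters.

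Beside the paralogs, the summed level of the 20 testis markers was 5983 to 12475 CPM in day 0 sons other than m8 and 6410 to 8701 CPM in day 10 sons other than m27. It was 114 to 234 CPM in daughters other than f12. For each 100 CPM of testis markers, the sons other than m8 had 5.92 to 11.7 CPM of paralogs. In whole flies, fewer cells of a type and less RNA per cell cannot be told apart.

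How much of a subunit pair came from the paralog was read per kilobase of transcript. In CD day 10 sons, the median library drew 48.3% of the Prosalpha6 and Prosalpha6T total from Prosalpha6T, the highest of 11 parents. The lowest share there was 8.11%, of Prosalpha3T in its pair with Prosalpha3, and the median over the 11 parents was 35.7%. For the chymotrypsin-like position, Prosbeta5R1 and Prosbeta5R2 together made up 42.2% with Prosbeta5. The median share over parents was 20% in CD sons at day 0 and 6.0% at day 50. At day 50 it was 9.11% in HSD sons and 21.1% in HFD sons.

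Ubiquitous subunits were lower in sons than in daughters at days 10 and 50. Their mean log2 CPM was 6.57, 6.55, 6.64, 6.49 and 6.74 in CD day 10 sons, against 7.65, 7.37, 7.25, 7.34 and 7.29 in CD day 10 daughters. At day 50 it was 7.13, 7.00, 6.99, 7.02 and 6.83 in sons, against 7.91, 7.80, 7.82, 7.84 and 7.87 in daughters. At day 0 it was 7.60, 7.40, 7.52, 7.53 and 7.34 in sons, against 7.65, 7.91, 7.85 and 7.90 in daughters. The groups did not overlap, with the smallest gap at day 0. The summed level of 17 ovary markers, all measured, also differed between the sexes, at 280.2 to 322 CPM in CD day 10 sons and 5436 to 12831 CPM in CD day 10 daughters, and at 73.7 to 174 CPM in CD day 50 sons and 8231 to 16791 CPM in CD day 50 daughters. The part of ovary in the level of the subunits was not tested.

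**Figure D2:**
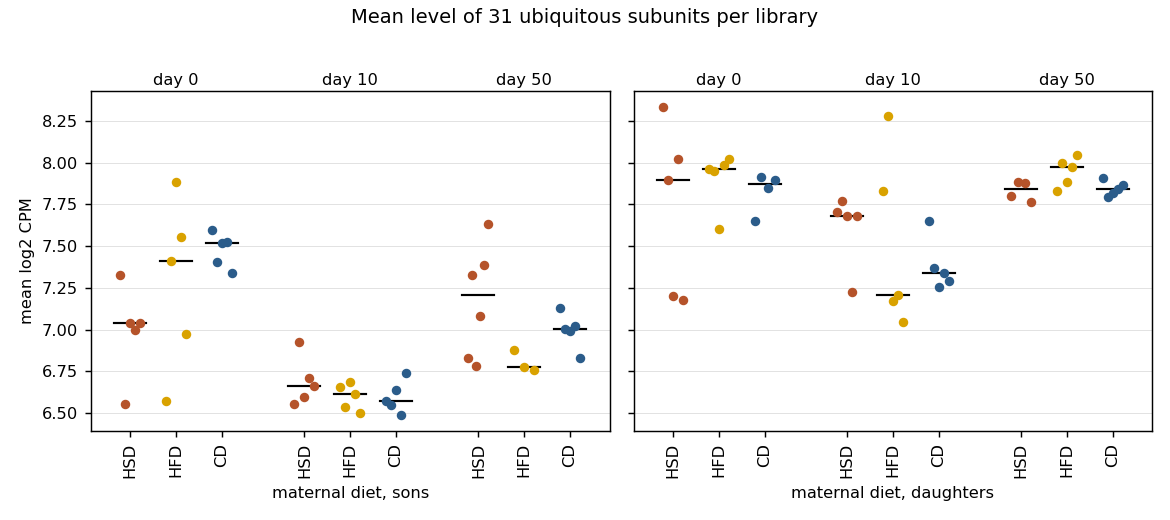
Mean log2 CPM of the 31 ubiquitous subunits without Prosalpha1 in each library, by sex, day and maternal diet, with a line at the group median. CD day 10 sons lie between 6.49 and 6.74, and CD day 50 daughters lie between 7.80 and 7.91.

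The test found 0 of 32 subunits lower in CD sons at day 0, 20 of 31 tested at day 10 and 30 of 32 at day 50, and none higher. Of all genes, 1.98%, 34.4% and 35.8% were lower in sons on those days. At day 0 the count depends on which libraries are scaled and fitted together. In the joint fit 9 subunits were lower (22.8% of all genes) and the median log2 fold change of the 31 was -0.37, against -0.07 when only day 0 libraries were scaled. Median-of-ratios size factors on the day 0 libraries alone gave 0 lower, as the main scaling did. The joint fit also moved the all-gene median, to -0.18 from 0.12. At day 50 both ways gave 30 calls and a median of -0.83. In the HSD line 13, 25 and 22 subunits were lower in sons on the 3 days, against 15.2%, 35.9% and 34.3% of all genes. In the HFD line 3, 25 and 29 were lower, against 3.54%, 33.1% and 34.9% of all genes, and Prosalpha1, whose count is uncertain, was the 1 subunit higher at day 0. In the joint fit 30 were lower at day 0 in the HSD line (36.4% of all genes) and 24 in the HFD line (12.6%). Without m1, m3, m4, m8 and f12, 1 subunit was lower in CD sons at day 0, in a fit whose share of all genes is not given here. Named for their small p at day 0, the core subunits Prosbeta1 (log2 fold change 0.28, SE 0.13, adjusted p = 0.132) and Prosbeta7 (0.30, SE 0.15, adjusted p = 0.156) turned to -0.0245 and -0.00815 in the joint fit.

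Among the cap ATPases, Rpt3 and Rpt4 were furthest below daughters in CD day 10 sons. Rpt3 had 60.8, 58.9, 65.7, 62.8 and 88.7 CPM in sons and 206, 162, 147, 176 and 146 CPM in daughters (log2 fold change -1.14, SE 0.24, adjusted p = 0.00011). All sons lay below all daughters. Rpt4 averaged 66.2 CPM in sons and 162 CPM in daughters (-1.12, SE 0.21, adjusted p = 2.17e-05). Of the non-ATPases, Rpn5 of the cap's lid was furthest below daughters at day 10. It had 95.0 ± 10.8 CPM in sons and 234 ± 33.8 CPM in daughters (SD, n = 5 each), a log2 fold change of -1.13 (SE 0.15, adjusted p = 1.72e-07). By part, 14 of the 18 cap subunits were lower (median -0.80) and 6 of the 13 core subunits (median -0.29), which was not tested as a difference. In the core, the outer-ring subunit Prosalpha4 had 71.0 CPM in sons and 172 CPM in daughters (-1.10, SE 0.16, adjusted p = 6.27e-07).

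At day 50 the deubiquitinase Rpn11 was furthest below daughters. It had 81.8, 83.1, 85.4, 88.1 and 79.1 CPM in CD sons, against 244, 226, 230, 231 and 240 CPM in CD daughters. Its log2 fold change was -1.48 (SE 0.23, adjusted p = 2.52e-06), and the groups lay far apart. Rpn5 (-1.43, SE 0.19, adjusted p = 2.76e-07), Rpn12 (-1.26, SE 0.16, adjusted p = 1.56e-07) and Rpn7 (-1.26, SE 0.19, adjusted p = 2.7e-06), which are lid subunits, came next. The subunit that did not pass, besides Prosalpha1, was Prosbeta5, with 337, 259, 241, 273 and 224 CPM in sons and 316, 302, 303, 320 and 314 CPM in daughters (adjusted p = 0.181). Its groups overlapped, as m31 lay above every daughter.

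**Figure D3:**
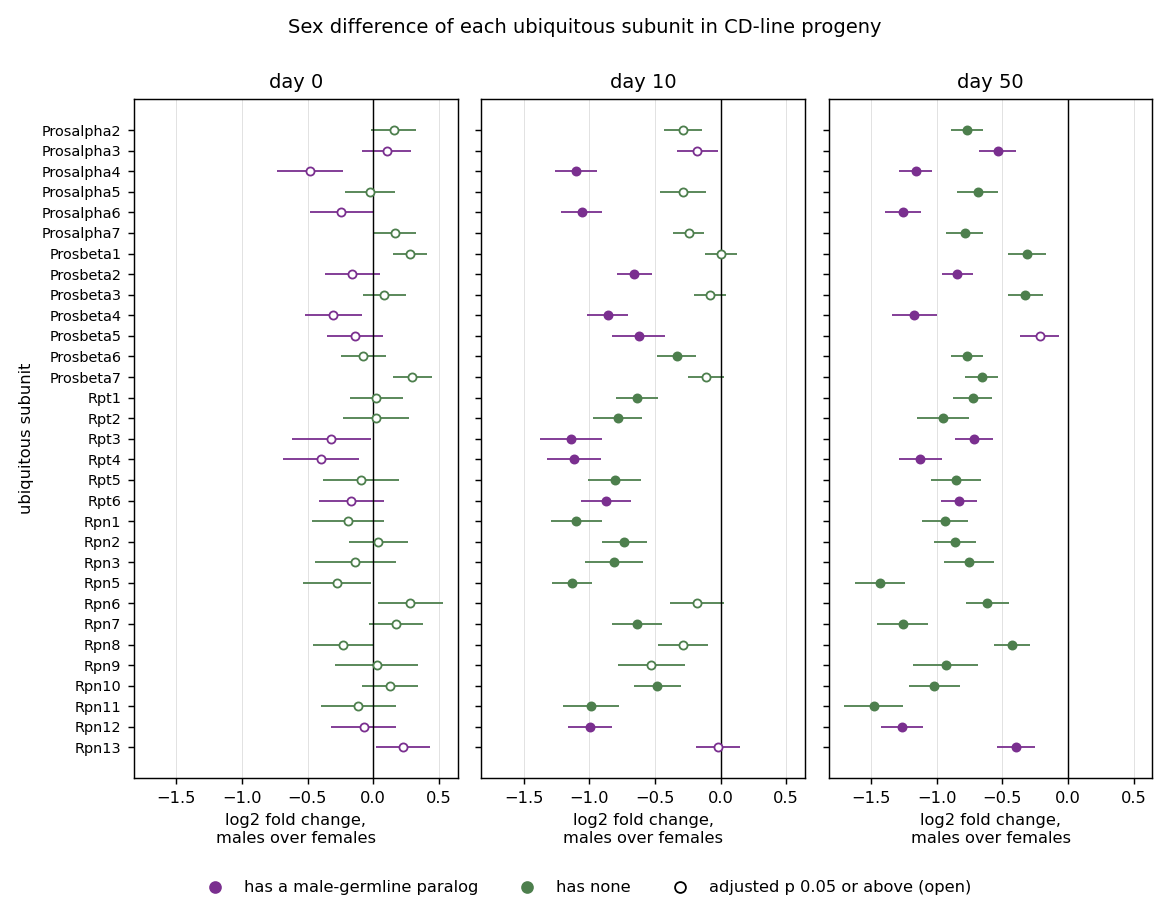
Log2 fold change of each ubiquitous subunit, CD sons over CD daughters, at days 0, 10 and 50, with bars of 1 SE, ordered by part of the complex. At day 50 the fold changes run from -1.48 for Rpn11 to -0.22 for Prosbeta5, leaving out Prosalpha1.

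Subunits with and without a testis paralog can be set side by side. At day 10 the 11 parents without Prosalpha1 had a median log2 fold change of -0.87 and the 20 subunits without a paralog -0.50. At day 50 these medians were -0.84 and -0.78, and at day 0 they were -0.17 and 0.02. The 4 X-linked subunits, all parents, had medians of -0.36, -1.11 and -0.98 at days 0, 10 and 50. The difference between these lists was not tested.

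Age was followed in CD sons. All 31 tested ubiquitous subunits fell between day 0 and day 10, against 11.9% of all genes (16% rose), with a median log2 fold change of -0.90. The lid subunit Rpn9 had 251, 223, 244, 254 and 214 CPM at day 0, 96.2, 97.7, 93.3, 86.9 and 99.0 CPM at day 10, and 111, 104, 107, 103 and 92.8 CPM at day 50. Its day 10 over day 0 log2 fold change was -1.33 (SE 0.07, adjusted p = 5.16e-09). Day 0 lay apart from both later days. Rpn11 (-1.33, SE 0.08, adjusted p = 1.47e-08), Rpt3 (-1.33, SE 0.14, adjusted p = 4.13e-06) and the ATPase Rpt2 (-1.28, SE 0.08, adjusted p = 2.69e-08) fell as far. Cap subunits fell further than core subunits, an order seen after the values were examined. The 6 ATPases had log2 fold changes of -1.33 (Rpt3) to -0.94 (Rpt1), with a median of -1.19, and the 12 other cap subunits had -1.33 (Rpn9) to -0.58 (Rpn8), with a median of -1.06. In the core, the 6 outer-ring subunits other than Prosalpha1 had -0.91 (Prosalpha6) to -0.45 (Prosalpha7), with a median of -0.63. The 7 inner-ring subunits had -0.90 (Prosbeta4) to -0.40 (Prosbeta3), with a median of -0.54. The difference between cap and core was not tested. The smallest fall was that of the inner-ring subunit Prosbeta3, to 87.6 ± 5.56 CPM at day 10, against 115.3 ± 9.96 CPM at day 0 (SD, n = 5 each; log2 fold change -0.40, SE 0.10, adjusted p = 0.00649). Without m1, m3 and m4, 29 subunits fell over this interval, in a fit whose share of all genes is not given here.

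Of the paralogs, only Prosalpha1R fell between those days in CD sons (157 CPM at day 10 and 209 CPM at day 0; log2 fold change -0.42, SE 0.14, adjusted p = 0.0416), and it was not called without m1, m3 and m4. The other 15 had log2 fold changes of -0.24 to 0.23 with adjusted p of 0.421 or more, and their groups overlapped. The muscle marker sum also differed between these days, at 8039 to 9586 CPM in CD day 10 sons and 24383 to 58595 CPM in CD day 0 sons, with all 12 genes measured. The part of muscle in the fall of the subunits was not tested.

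Between day 10 and day 50 both sets changed in CD sons, in opposite directions. Of the 31 subunits, 21 rose and none fell (34.1% of all genes rose), with a median log2 fold change of 0.36. All 15 paralogs other than Prosalpha1R fell (31.8% of all genes fell), with a median of -3.08. With all groups fitted jointly, 13 subunits rose (24.1% of all genes) and the same number of paralogs, 15, fell (22.2%).

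Prosbeta5 rose most. It had 208, 184, 193, 226 and 182 CPM at day 0, 119, 114, 123, 108 and 129 CPM at day 10, and 337, 259, 241, 273 and 224 CPM at day 50. The log2 fold change of day 50 over day 10 was 1.13 (SE 0.11, adjusted p = 1.45e-06), and all day 50 sons lay above all day 10 sons. Rpt3 rose by 0.98 (SE 0.14, adjusted p = 2.64e-05), Rpt6 by 0.67 (SE 0.10, adjusted p = 6.71e-05) and the scaffold Rpn1 by 0.67 (SE 0.12, adjusted p = 0.000179) on the log2 scale. Per kilobase, Prosbeta5 became the highest ubiquitous subunit of CD day 50 sons (median 227 CPM per kb), where Rpn6 was highest at day 10 (137 CPM per kb) and at day 0 (249 CPM per kb). Of the 11 parents 10 rose (median 0.43), and of the 20 subunits without a paralog 11 rose (median 0.24).

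Among the falling paralogs, Prosbeta5R1 had 80.6, 64.9, 56.2, 60.7 and 53.8 CPM in CD day 10 sons and 0.32, 11.4, 10.5, 5.97 and 0.09 CPM in CD day 50 sons. Its log2 fold change was -3.55 (SE 0.69, adjusted p = 0.000404). Prosbeta4R2 (-3.58, SE 0.61, adjusted p = 0.000139), Prosbeta5R2 (-3.45, SE 0.54, adjusted p = 7.18e-05) and the outer-ring duplicate Prosalpha3T (-3.36, SE 0.52, adjusted p = 6.62e-05) fell about as far. For each of the 15 paralogs, m31 and m35 were the lowest of the CD day 50 sons.

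The duplicates of the cap ATPases fell least. This was seen after the values were examined. Rpt3R had 36.8, 30.1, 37.9, 29.8 and 30.1 CPM in CD day 10 sons and 6.21, 12.02, 16.6, 12.8 and 6.07 CPM in CD day 50 sons (log2 fold change -1.67, SE 0.23, adjusted p = 2.94e-05). Rpt4R fell by 1.93 (SE 0.19, adjusted p = 2.08e-06) and Rpt6R by 2.46 (SE 0.33, adjusted p = 2.43e-05). In m31 and m35, where Prosbeta5R1 was at 0.32 and 0.09 CPM, Rpt4R still had 7.42 and 5.35 CPM. The difference between these paralogs and the others was not tested.

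**Figure D4:**
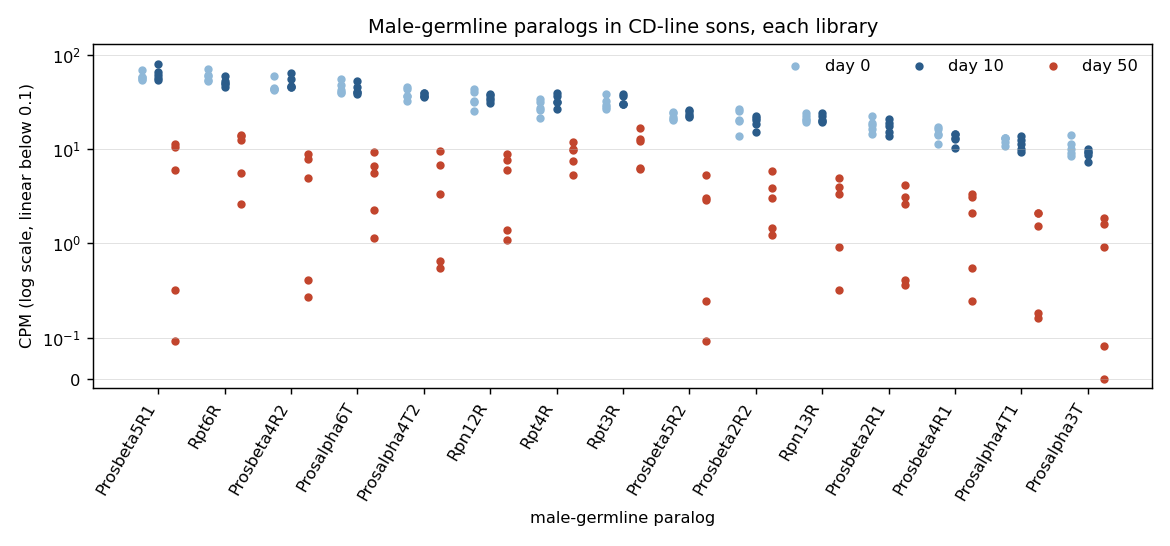
CPM of each paralog other than Prosalpha1R in the 5 CD sons of days 0, 10 and 50 (log axis above 0.1 CPM and linear below, to show values of 0). Prosbeta5R1 lies at 53.8 CPM or more at day 10 and at 11.4 CPM or less at day 50.

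The testis marker sum moved with the paralogs. It was 219, 1408, 1279, 708 and 230 CPM in CD day 50 sons, in the same order as the paralog sums of 22.7, 106, 102, 83.0 and 24.7 CPM, against 6489 to 8104 CPM in CD day 10 sons. The paralog sum for each 100 CPM of testis markers was 5.92 to 6.80 in day 0 sons other than m8, 6.13 to 7.52 at day 10 and 7.09 to 11.7 at day 50. All 20 testis markers were measured, and the part of testis content in the fall was not tested. Library m27 of day 10 had a paralog sum of 31.4 CPM and Prosbeta5 at 285 CPM, where the other HSD day 10 sons had 395 to 643 CPM of paralogs and 106 to 121 CPM of Prosbeta5.

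In sons of the other maternal diets the counts depended on the fit. From day 0 to day 10, 13 ubiquitous subunits fell in HFD sons (8.29% of all genes were called) and 0 changed in HSD sons (0.442% of all genes). The joint fit had 28 falling in HFD sons and 5 in HSD sons, where 20.2% and 3.28% of all genes fell. From day 10 to day 50, no member was called in HFD sons (1.59% of all genes) or HSD sons (0.0% of all genes). In the joint fit 1 subunit rose in HFD sons and 19 in HSD sons, where 2.8% and 9.31% of all genes rose. Those groups hold m8, m27 and m45, whose values stand apart as given above. The difference in ageing between the lines was not tested.

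In CD daughters all 31 ubiquitous subunits were lower at day 10 than at day 0 (34.7% of all genes fell and 36.6% rose), with a median log2 fold change of -0.61. Rpn9 fell furthest (-1.08, SE 0.13, adjusted p = 2.47e-05), with 195, 132, 133, 174 and 135 CPM at day 10 and 248, 308, 282 and 311 CPM at day 0. Rpn3 (-0.89, SE 0.11, adjusted p = 2.67e-05), Rpt4 (-0.84, SE 0.11, adjusted p = 3.81e-05) and Rpn8 (-0.83, SE 0.11, adjusted p = 3.87e-05) followed. The 18 cap subunits had a median of -0.71 and the 13 core subunits of -0.47. In the joint fit the median over the 31 was -0.43 and 18 fell (19.7% of all genes). The muscle marker sum was 9588 to 32195 CPM in CD day 10 daughters and 51186 to 75794 CPM in CD day 0 daughters, and the ovary marker sum was 5436 to 12831 CPM at day 10 and 775 to 3220 CPM at day 0. Their part in the fall of the subunits was not tested.

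From day 10 to day 50, 15 subunits rose in CD daughters (16.1% of all genes rose and 30.1% fell), with a median of 0.22, or 0.47 and 16 calls in the joint fit (15.4% of all genes rose there). Prosbeta5 again had the largest rise (0.34, SE 0.07, adjusted p = 0.00178), with 316, 302, 303, 320 and 314 CPM at day 50 and 238, 208, 197, 188 and 200 CPM at day 10. Prosbeta3 (0.32, SE 0.08, adjusted p = 0.00768), Rpn12 (0.31, SE 0.09, adjusted p = 0.00978) and Prosalpha4 (0.29, SE 0.09, adjusted p = 0.0143) came next. The calls lay mostly in the core, with 12 of its 13 subunits other than Prosalpha1, against 3 of 18 in the cap. This count rests on single libraries: without f16 it was 22, and it was 8 without f18, without f31 or without f35. It was 9 without f19, a library taken, after the values were seen, to lie nearest another day. The change of Prosalpha1R and Rpt6R given below was then not called. In HSD daughters 5 subunits fell from day 0 to day 10 (73.3% of all genes were called), and none was called from day 10 to day 50 (0.901%). In HFD daughters no subunit was called over either interval (0.0% and 63.1% of all genes). From day 10 to day 50 the joint fit had 16 rising in HFD daughters, where 35.1% of all genes rose, and the median log2 fold change of the 31 was 0.37, against 0.06 when HFD daughters were fitted apart. Of the paralogs, Rpt4R was called lower in HSD daughters at day 10 than at day 0. Rpt6R and Rpt4R were called lower in HFD daughters at day 50 than at day 10. The groups overlapped in each case. The HSD day 0 group holds f12, which has transcripts of the other sex. The HFD day 10 group holds f21 and f22, its highest libraries in Rpt6R. Whether these calls stand without those libraries is not given here.

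The difference between the sexes in these changes was tested for itself, and the counts are to be read against the share of all genes called. The change from day 0 to day 10 was more negative in CD sons for 17 subunits and more positive for the 3 paralogs Rpt6R, Rpn13R and Rpt4R, against 49.4% of all genes called. The largest were Rpn12 (male minus female log2 change -0.70, SE 0.13, adjusted p = 0.000142), Rpn1 (-0.69), Rpn11 (-0.65) and Rpn5 (-0.63). These calls depend on the fit: 1 of 48 members was called in the joint fit (22.3% of all genes), and 10 without m1, m3, m4, m8 and f12. The share of all genes called without those libraries is not given here. For day 10 to day 50, the 9 called members (44.6% of all genes) included Rpt3 (0.67), Prosbeta5 (0.65) and Rpn1 (0.41), which rose more in sons. Rpn7 (-0.37), Prosbeta7 (-0.30) and Rpn10 (-0.29), and the paralogs Rpn13R (-4.69), Prosbeta2R2 (-2.72) and Rpt3R (-1.45), had the more negative change in sons. The joint fit called 1 member over this interval too (21.3% of all genes).

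Of the 15 paralogs other than Prosalpha1R, Rpt6R reached the highest level in daughters other than f12. It had 10.2, 17.7, 20.6 and 21.8 CPM in CD daughters at day 0, 3.61, 0.36, 0.30, 6.16 and 0.13 CPM at day 10, and 0.17 to 0.73 CPM at day 50. The fall from day 0 to day 10 had a log2 fold change of -3.20 (SE 0.75, adjusted p = 0.00177), and that from day 10 to day 50 -2.60 (SE 0.90, adjusted p = 0.0308). The day 0 and day 10 groups did not overlap, and the day 10 and day 50 groups did. Rpt4R also fell from day 0 to day 10 (-1.55, SE 0.50, adjusted p = 0.0129), as did Prosalpha1R (-0.49, SE 0.15, adjusted p = 0.00846), which rose again by day 50 (0.40, SE 0.14, adjusted p = 0.03). Only 4 paralogs passed the filter on low counts in CD daughters, those 3 and Rpt3R.

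Between libraries of 1 group of daughters Rpt6R differed widely. At day 0 it was 33.2, 43.5, 0.07, 18.7 and 0.34 CPM in HSD daughters and 25.5, 18.1, 1.29, 26.9 and 13.7 CPM in HFD daughters, where f12 held the 43.5 CPM. At day 10 it was 0.07, 0.00, 0.42, 0.64 and 0.33 CPM in HSD daughters and 13, 32.95, 0.42, 1.11 and 0.52 CPM in HFD daughters. The high values at day 10 were those of f21 and f22, and the low ones at day 0 those of f8, f13 and f15. The muscle marker sum was 33841 and 48696 CPM in f21 and f22, against 13569 to 26330 CPM in the other HFD day 10 daughters, and 13495 to 18749 CPM in f8, f13 and f15, against 32752 to 88833 CPM in the other day 0 daughters. The part of muscle or of the age of these flies in the level of Rpt6R was not tested.

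**Figure D5:**
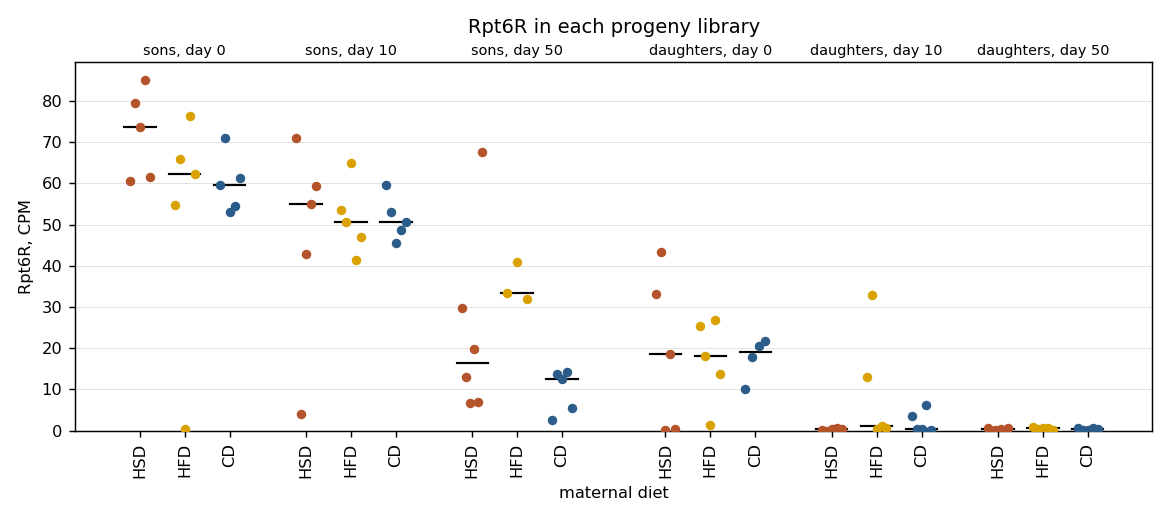
CPM of Rpt6R in each library of sons and daughters, by day and maternal diet, with a line at the group median. Day 0 daughters reach 43.5 CPM with 3 libraries below 2. At day 10, f21 and f22 (13 and 32.95 CPM) stand above the other daughters, and day 50 daughters lie at 1.10 CPM or less.

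Maternal diet was compared within sex and day. In day 50 sons the paralogs had widely different levels between lines, although the test called no gene at all. The paralog sum was 276, 106, 50.0, 176, 66.3 and 487 CPM in the 6 HSD sons, 309, 351 and 323 CPM in the 3 HFD sons, and 22.7, 106, 102, 83.0 and 24.7 CPM in the 5 CD sons. All HFD sons lay above all CD sons, and HSD sons overlapped both, with m45 the highest.

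For HFD over CD in day 50 sons, 0 of 47 tested members passed (0.0% of all genes), with 3627 of 12659 genes at an unadjusted p under 0.05. The 15 paralogs had a median log2 fold change of 2.74 and adjusted p of 0.0976 to 0.105, against an all-gene median of 0.00. Prosbeta2R2, a duplicate of the trypsin-like subunit, had 11.6, 13.5 and 14.9 CPM in HFD sons and 1.21, 3.84, 5.82, 3.03 and 1.45 CPM in CD sons (2.23, SE 0.55, adjusted p = 0.0976). Prosalpha4T1 had 8.21, 8.20 and 12.9 CPM in HFD sons and 0.16, 1.51, 2.10, 2.11 and 0.18 CPM in CD sons (3.11, SE 0.87, adjusted p = 0.0976). For all 15 paralogs every HFD library lay above every CD library, as it did for 21.2% of all genes tested. DESeq2 called 15 members and edgeR called 14 without m45, a library of the HSD group that shares the estimate of spread. The share of all genes called in those 2 settings is not given here, so these counts do not set the paralogs apart from other genes. With edgeR, the joint fit called 6 members, all paralogs, where 13.2% of all genes were called. The call of this comparison thus depends on the tool, the fit and that library.

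Ubiquitous subunits of day 50 sons differed less. Rpt3 had 113, 88.4 and 73.8 CPM in HFD sons and 167, 136, 139, 123 and 119 CPM in CD sons (-0.48, SE 0.22, adjusted p = 0.168), and Prosalpha4 had 89.8, 86.1 and 80.8 CPM in HFD sons and 119, 104, 104, 117 and 113 CPM in CD sons (-0.29, SE 0.17, adjusted p = 0.285). For 8 of the 31 subunits every HFD library lay below every CD library, as for 22.1% of all genes tested. The testis marker sum was 4081, 4603 and 3812 CPM in HFD sons and 219, 1408, 1279, 708 and 230 CPM in CD sons, so it moved with the paralogs, and its part in the difference was not tested. The groups hold 3 and 5 libraries.

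For HSD over CD in day 50 sons, 0 members passed (0.0% of all genes, 2057 at an unadjusted p under 0.05), and the paralogs had a median log2 fold change of 1.86. The HSD group holds m45, the highest of these sons in the paralog sum, and a median without it is not given here. Prosbeta2R2 had 10.6, 4.51, 2.67, 6.78, 8.64 and 14.5 CPM in HSD sons, which overlapped the CD sons given above (1.41, SE 0.48, adjusted p = 0.302). For HSD over HFD, 0 members passed (0.0% of all genes, 626 at an unadjusted p under 0.05). Rpt4 averaged 114 CPM in HSD sons and 75.7 CPM in HFD sons (0.50, SE 0.22, adjusted p = 0.848). In HSD sons Prosbeta5 was at 200, 357, 212, 280, 496 and 229 CPM, where m44 had the 496 CPM and m41 the 357 CPM. In HFD sons it was at 212, 180 and 200 CPM.

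In younger sons no member passed in any diet comparison, and neither did any gene: 0.0% were called for HFD over CD, HSD over CD and HSD over HFD at day 0, and 0.0% for the same 3 comparisons at day 10. The joint fit called 4 members for HSD over HFD at day 0, all of them lower ubiquitous subunits (Prosalpha4, Prosalpha6, Prosbeta2 and Rpn5), where 16.9% of all genes were lower. At an unadjusted p under 0.05 the separate fits had 221 to 1085 genes at day 0 and 319 to 542 at day 10. At day 0 the mean log2 CPM of the 31 subunits was 7.33, 6.55, 7.04, 7.00 and 7.04 in HSD sons, 6.57, 7.41, 7.89, 7.55 and 6.97 in HFD sons, and 7.60, 7.40, 7.52, 7.53 and 7.34 in CD sons. All HSD sons lay below all CD sons, but narrowly, with 7.33 in m11 and 7.34 in m5. How many of all genes separated in this way was not counted. HFD sons, of which m8 had the 7.89, overlapped both. At day 10 the paralog sum was 395 to 643 CPM in HSD sons other than m27, 429 to 517 CPM in HFD sons and 423 to 537 CPM in CD sons, and the groups overlapped.

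In daughters 3 members passed over 9 diet comparisons, each in 1 comparison. Rpt6R was lower in HSD than in HFD day 10 daughters (log2 fold change -5.16, SE 1.47, adjusted p = 0.00869), where 66.3% of all genes were called. The groups overlapped, as given above. After the values were seen, 9 libraries were taken to lie nearest another day, among them f21, f22 and 3 of the HSD daughters. The measure behind that choice is not given here. Without those 9 and the 5 libraries that hold transcripts of the other sex, no member passed. At day 50, Prosalpha5 averaged 197 CPM in HFD and 175 CPM in CD daughters (0.14, SE 0.04, adjusted p = 0.0449; 6.24% of all genes were called). Prosalpha6 averaged 150 CPM in HSD and 165 CPM in CD daughters (-0.17, SE 0.04, adjusted p = 0.0272; 9.48% of all genes). The groups overlapped in both, and neither gene passed in the joint fit.

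The other daughter comparisons called no member. The share of all genes called was 0.0% for HFD over CD, HSD over CD and HSD over HFD at day 0, where 280, 299 and 1313 genes had a p under 0.05 before adjustment. At day 10 it was 0.0483% for HFD over CD and 0.0% for HSD over CD, with 2950 and 2397 such genes. At day 50 it was 0.0% for HSD over HFD, with 1566. The mean log2 CPM of the subunits in day 50 daughters was 7.80, 7.89, 7.88 and 7.77 under HSD, 7.83, 7.999, 7.89, 7.97 and 8.04 under HFD, and 7.91, 7.80, 7.82, 7.84 and 7.87 under CD. The 3 groups overlapped. The joint fit called 9 members for HSD over CD (12.1% of all genes) and 10 for HSD over HFD (18.7%) in day 0 daughters, all paralogs. The HSD group there holds f12, and the joint fit was not made without it.

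Whether the HSD and HFD difference of daughters depended on day or sex was tested for itself. Rpt6R had a more negative HSD minus HFD difference at day 10 than at day 0 (-5.27, SE 1.57, adjusted p = 0.005), as had Rpt4R (-3.49, SE 1.11, adjusted p = 0.00778) and Rpn13R (-3.17, SE 1.195, adjusted p = 0.0208), and 67.6% of all genes were called. Rpt6R also passed for day 10 against day 50 (-5.11, SE 1.85, adjusted p = 0.0307; 40.7% of all genes) and for sons against daughters at day 10 (4.82, SE 1.41, adjusted p = 0.0099; 41.1% of all genes). Without the same 14 libraries none passed in the 2 comparisons between days.

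Mothers had paralog sums of 2.06 to 4.70 CPM on HSD, 2.24 to 3.29 CPM on HFD and 2.69 to 7.39 CPM on CD. No member and no gene passed for HFD over CD, HSD over CD or HSD over HFD (0.0%, 0.0% and 0.0%), where 314, 949 and 831 genes had a p under 0.05 before adjustment. The mean log2 CPM of the subunits was 7.29, 7.39, 7.35, 7.32 and 7.46 in HSD mothers, 7.56, 7.51, 7.41, 7.42 and 7.51 in HFD mothers, and 7.58, 7.36, 7.54, 7.46 and 7.49 in CD mothers. HSD mothers lay mostly at the low end, but the groups overlapped. In log2 fold change 30 of 31 subunits were below CD, with a median of -0.11, against an all-gene median of 0.01. The subunits were not tested as a set. Mothers and daughters were normalised apart and were not tested against each other.

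The rest of the pathway was read from a list of 26 genes of ubiquitin and proteasome function outside the members, of which 25 were measured. In CD sons over daughters 8 were higher and 2 lower at day 0 (26.5% and 1.98% of all genes), 6 and 11 at day 10 (44.5% and 34.4%), and 3 and 15 at day 50 (47% and 35.8%). The F-box gene ntc, which male germ cells need to shape sperm, had 118 CPM in CD day 10 sons and 16.1 CPM in daughters (3.05, SE 0.28, adjusted p = 2.75e-10). Its proteasome-binding partner PI31 had 137 CPM in sons and 56.9 CPM in daughters (1.44, SE 0.15, adjusted p = 2.77e-09). The ubiquitin-activating enzyme Uba1 had 241 CPM in sons and 678 CPM in daughters (-1.32, SE 0.12, adjusted p = 3.89e-10), and the proteasome activator REG had 73.6 CPM in sons and 171 CPM in daughters (-1.05, SE 0.12, adjusted p = 9.03e-09). At day 50 the proteasome shuttle gene Rad23 was lower in sons by 1.14 (SE 0.12, adjusted p = 3.17e-09) and the deubiquitinase Usp14 by 1.28 (SE 0.17, adjusted p = 3.84e-07) on the log2 scale.

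With age in CD sons, 5 pathway genes rose and 9 fell from day 0 to day 10 (16% and 11.9% of all genes), and 14 rose and 9 fell from day 10 to day 50 (34.1% and 31.8%). In the first interval the deubiquitinase Usp14 (-0.97, SE 0.08, adjusted p = 3.68e-07) and Sem1, a small cap protein (-1.17, SE 0.11, adjusted p = 1.67e-06), fell with the subunits. The assembly factor Pomp fell too (-0.38, SE 0.07, adjusted p = 0.000466). In the second, ntc fell to 30.95 CPM at day 50, against 118 CPM at day 10 (-1.98, SE 0.18, adjusted p = 1.02e-06). PI31 fell by 0.94 (SE 0.09, adjusted p = 1.06e-06) and Uch-L5, a cap deubiquitinase, by 1.63 (SE 0.18, adjusted p = 5.03e-06). The ubiquitin fusion genes RpL40 (0.76, SE 0.08, adjusted p = 3.47e-06) and RpS27A (0.79, SE 0.09, adjusted p = 3.93e-06) rose.

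In CD daughters 5 pathway genes rose and 8 fell from day 0 to day 10 (36.6% and 34.7% of all genes), and 6 rose and 1 fell from day 10 to day 50 (16.1% and 30.1%). Sem1 (-1.09, SE 0.16, adjusted p = 7.46e-05) and Pomp (-0.61, SE 0.07, adjusted p = 1.43e-05) fell in the first interval, as they did in sons. Between maternal diets the list had calls only in HSD over HFD day 10 daughters, where 8 were higher and 5 lower and 66.3% of all genes were called.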

How the data were processed

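The authors deposited gene counts of whole-fly total RNA, 1 table for mothers and 1 for progeny. The submitters' processing notes name kallisto, BDGP6, R 4.2.0 and DESeq2 1.36.0 without saying which step used which. Kallisto divides reads among similar or overlapping transcripts. Strand use in counting is not given in the sources used. Genes were matched to BDGP6.54 by FlyBase identifier, and no sequences were used.

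Counts were tested with edgeR 4.0.16 (limma 3.58.1, R 4.3.3). The steps were filterByExpr (at least 10 counts, total 15), TMM scaling, quasi-likelihood F tests and Benjamini-Hochberg adjustment over all genes tested, with calls at 0.05. Log2 CPM values used a prior count of 1. All tests are two-sided. Sexes were compared within a day over the 3 diets in 1 fit, days within a sex and diet, diets within a sex and day. Mothers and progeny were scaled separately. DESeq2 1.42.0, median-of-ratios scaling, no filter, a joint fit of the 18 progeny groups, a replicate block, left-out libraries and 2 exclusions were alternatives. Marker sums are CPM summed over fixed gene lists. The fits were tested on simulated data.

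Named members are, per comparison and set, the 4 largest rises and falls among calls, otherwise the 2 smallest p-values, and in the pathway list the 6 smallest. For diet comparisons without calls other than day 50 sons, ranges are given instead. Members, lists and tests were chosen with earlier results of these data known. Within a group, no library looked deposited more than once (200 pairs, smallest chi-square divided by its degrees of freedom 5.92). Pairs from different groups were not compared. Correlations of same-numbered sons and daughters about their group means ran from -0.49 to 0.49, so the numbers were not taken as pairs. Intervals of counting error are not given, since tests use the spread between libraries.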

Additional observations from a re-analysis of the deposited data

Results flagged for a closer look

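Of 40 group values checked (the paralog sum and the mean of the ubiquitous subunits in groups of 4 or more libraries), 4 had a library far from the rest of its group, where chance gives about 1 in 20. Among HFD day 0 sons, m8 had a summed level of the 15 testis paralogs of 2.32 CPM, against 517 to 532 CPM in the other 4. Among HSD day 0 daughters, f12 had a summed level of 218 CPM, against 2.47 to 39.9 CPM in the other 4. Both libraries hold the other sex's transcripts, as given above. In the mean log2 CPM of the 31 ubiquitous subunits, f8 had 7.60 among HFD day 0 daughters, where the others had 7.95 to 8.02, and f29 had 7.23 among HSD day 10 daughters, where the others had 7.68 to 7.77.

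A change that differed between groups was called for 20 members when day 10 against day 0 was compared between CD sons and daughters, 17 of them ubiquitous subunits with the more negative change in sons, where 49.4% of all genes were called. It was called for 9 members when day 50 against day 10 was compared in the same way, with Prosbeta5 and Rpt3 rising more in sons, where 44.6% of all genes were called. In the joint fit of all 18 groups each of these counts was 1. The difference of HSD and HFD at day 10 was called between the sexes for 1 member, Rpt6R (41.1% of all genes). In daughters it was called between day 10 and day 0 for 3 members (Rpt6R, Rpt4R and Rpn13R; 67.6% of all genes) and between day 10 and day 50 for 1, again Rpt6R (40.7% of all genes).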

How the results depend on the processing

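Of 234 alternative values of the 40 counts of members called, 177 lay within 1.5 times, and of the alternatives for the 96 named members 1577 kept direction and call, 102 lost the call, 23 gained one and 4 turned direction. The cause of each change was not tested unless the setting itself removes libraries. DESeq2's size factors in edgeR turned no direction of a named member, but raised the all-gene median by 0.18 in the sex comparison of day 50. The leaving out of libraries that hold the other sex's transcripts (5) or also those nearest another day (9 more) was chosen after seeing the data. The measure that placed the 9 nearest another day is not given here. Outside the joint fit and the other maternal lines, the share of all genes called is not given for the alternatives. Their counts show only how far a count of members moved.

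With all 18 progeny groups in 1 fit, subunits lower in CD sons at day 0 numbered 9 rather than 0, those that rose in CD sons from day 10 to day 50 numbered 13 rather than 21, and those that fell in CD daughters from day 0 to day 10 numbered 18 rather than 31. Paralogs called in CD sons from day 0 to day 10 went to 0 rather than 1, and in CD daughters from day 10 to day 50 to 1 rather than 2. The joint fit also called 9 members for HSD over CD and 10 for HSD over HFD in day 0 daughters, 4 for HSD over HFD in day 0 sons and 6 for HFD over CD in day 50 sons, where none was called, and 2 rather than 1 for HSD over HFD in day 10 daughters. It called 0 rather than 1 for both comparisons with CD in day 50 daughters. Differences between sexes went to 1 rather than 20 (day 10 against 0) and 1 rather than 9 (day 50 against 10), and between days in daughters to 7 rather than 3. Prosbeta1 (-0.0245) and Prosbeta7 (-0.00815) turned direction between the sexes at day 0.

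Without the 5 libraries, 1 subunit was called between the sexes at day 0, 0 paralogs in CD sons from day 0 to day 10, 10 members rather than 20 in the sex difference of day 10 against 0, and 2 rather than 1 in daughters for day 10 against day 50. Also without the 9, these were 1 subunit, 0 and 11 members for the first 3, and 9 rather than 15 subunits and 0 rather than 2 paralogs changed in CD daughters from day 10 to day 50. HSD over HFD in day 10 daughters then had 0 rather than 1, both day differences of daughters 0, and HFD over CD in day 50 sons 14 rather than 0. Rpn9 (0.27) and Rpt4 (0.15), which were not called, turned direction in HSD over HFD day 10 daughters.

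DESeq2 called 15 rather than 0 members for HFD over CD in day 50 sons, 16 rather than 9 in the sex difference of day 50 against 10, and 1 rather than 0 for HSD over CD in mothers. It called 2 for each of HSD over HFD at days 10 and 50, HFD over CD and HSD over CD at day 50 in daughters, the sex difference of HSD and HFD, and the daughters' day 10 against day 50. Without a filter, 5 rather than 3 paralogs fell in CD daughters from day 0 to day 10, 2 members passed for HSD over HFD at day 10, 0 for HFD over CD at day 50, and 8 rather than 3 for daughters' day 10 against day 0. In other maternal lines, subunits between the sexes at day 0 were 4 (HFD) and 13 (HSD). Subunits over day 0 to 10 were 13 and 0 in sons and 0 and 5 in daughters, and paralogs 0 and 0 in sons and 0 and 1 in daughters. From day 10 to 50 both sets were 0 in sons, subunits were 0 in both lines of daughters, and paralogs 0 in HSD daughters.

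With single libraries left out, paralogs called in CD sons from day 0 to day 10 ran from 0 to 1 (1 only without m3, m5 or m18). Subunits in CD daughters from day 10 to 50 ran from 8 (without f18, f31 or f35) to 22 (without f16) and paralogs from 0 (without f19 or f35) to 2. HSD over HFD day 10 daughters ran from 1 to 2, HFD over CD day 50 daughters from 0 to 3 (3 without f31 or f36), HSD over CD day 50 daughters from 0 to 2 (2 without f42) and HSD over HFD day 50 daughters from 0 to 1 (1 without f40). The sex difference of HSD and HFD ran from 1 to 2, and daughters' day 10 against day 0 from 2 to 5 (5 without f11) and day 10 against day 50 from 0 to 2 (2 without f23 or f29).

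The replicate block, though the numbers were not taken as pairs, gave 0, 20 and 30 subunits and 14, 15 and 16 paralogs between the sexes at days 0, 10 and 50, against 0, 20 and 30 and 14, 15 and 15 without it. In females most paralogs had too few counts to be tested with age, and the part of depth in this was not tested.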
